A study of Homo sapiens with 16 samples.

Results

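Small nucleolar RNAs (snoRNAs) lie inside the introns of longer transcripts, and the non-coding snoRNA host genes described here are carriers not known mainly for a protein. They were chosen by the summed count of every gene whose symbol is SNHG followed by a number, or GAS5, ZFAS1 or DANCR, with a minimum of 100 reads over the 16 libraries. Of 60252 genes in the count table, 31 carry such a symbol and 30 met the minimum, and no other measured value was used for the choice. SNHG27, at 123 reads, SNHG22, at 225, and SNHG28, at 266, lie just inside it, and SNHG18, at 9 reads, just outside. GENCODE v29 classes SNHG32 as protein-coding and the others as non-coding types. All 30 passed the filter on low counts and were tested with the other genes, 23830 in all. The cells were LNCaP, a line from a metastasis of prostate cancer. RNA was sequenced from 8 groups of 2 libraries, given by 4 arms and 2 agents. The arms are Scr (control siRNA), siOGT1 and siOGT2 (siRNAs against OGT, the enzyme that attaches O-GlcNAc to nuclear and cytosolic proteins, present for 48 hours) and OSMI2, a compound that blocks the same enzyme. Where 4 values follow each other, the arms stand in that order. The agents, given for the last 4 hours, are DMSO, the solvent control, and AT7519 at 0.5 µM, an inhibitor of cyclin-dependent kinases including the transcription kinase CDK9. The labels give neither a dose or time for OSMI2 nor whether those cells also received the control siRNA, and they do not say that the 2 replicates were grown separately. The spread behind each p-value is that between libraries and may be technical.

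In a host gene, splicing frees the intron and exonucleases trim it down to the snoRNA, which then guides the modification of ribosomal or spliceosomal RNA. Box C/D snoRNAs direct methylation of the ribose, box H/ACA snoRNAs direct pseudouridylation, and scaRNAs do the same in Cajal bodies for the RNAs of the spliceosome. The spliced exons of many of these hosts hold no long reading frame. Transcripts such as GAS5 and ZFAS1 are known to be degraded rapidly by nonsense-mediated decay, and several hosts begin, as ribosomal protein genes do, with a run of pyrimidines.

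Across the series, total counts per library ran from 40216911 to 147019364, and values are given as CPM, counts relative to library sizes scaled by TMM. The 9 markers of luminal prostate cells were all well expressed, among them KLK3 at 727 to 1658 CPM. Of the basal markers KRT5 and TP63 reached at most 0.0624 and 0.0526 CPM, and CHGA and PTPRC at most 0.192 and 0.0734, while SYP reached 7.08 CPM and COL1A1 40.8. OGT itself stood at 274 and 263 CPM in Scr with DMSO, at 20.7 and 14.6 after siOGT1, and at 36 and 29.8 after siOGT2. With OSMI2 it stood at 349 and 336 CPM.

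As a class the host genes took up a small and shifting share of the libraries. Under DMSO they held 0.256% ± 0.006 of all counts for Scr (SD, n = 2), 0.207% ± 0.011 for siOGT1, 0.213% ± 0.006 for siOGT2, and 0.251% ± 0.002 for OSMI2. With AT7519 the share was 0.380% ± 0.028, 0.294% ± 0.009, 0.315% ± 0.010 and 0.377% ± 0.007. In every arm both AT7519 libraries lay above both DMSO libraries, and with either agent both libraries of each OGT siRNA lay below both Scr libraries.

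Levels differ widely between the members. Set against exon length in GENCODE v29 and averaged over the 2 Scr libraries with DMSO, the order per kilobase was led by SNHG19 (153 ± 9.13 CPM per kb, SD), SNHG29 (153 ± 8.63) and SNHG8 (147 ± 7.24), which do not differ beyond their spread. DANCR (83.8 ± 0.35) and GAS5 (78.1 ± 5.58) followed, with both DANCR libraries above both GAS5 libraries, and ZFAS1 stood at 45.4 ± 1.44 and SNHG1 at 38.2 ± 0.06. SNHG14, the second by CPM alone in these libraries, held only 6.96 CPM per kb because its annotated exons add up to 43324 bases, and SNHG19 leads on exons of 342 bases. With AT7519 in Scr the leaders were SNHG29 (243 CPM per kb), SNHG19 (241), SNHG8 (204) and GAS5 (190.2), and SNHG1 had moved from rank 9 to rank 6. At the other end SNHG26, SNHG27, SNHG22 and SNHG28 averaged under 1 CPM, and 21 of the 30 averaged 10 CPM or more.

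The start regions of the host genes are shown because many members moved together under AT7519, as described after them. RefSeq windows (build GRCh38.p14, 250 bases before to 50 after the annotated start) were found for 26 of the 30 members. A pyrimidine run was taken as a C within 10 bases of the start, on the gene's strand, followed by at least 4 bases that are C or T. It was present in 16 of 26 windows (61.5%), against 33.5% of all 35116 windows. The letters GGGCGG, searched on both strands, were in 19 (73.1%, against 45.0%), TATAAA in 4 (15.4%, against 11.5%), CACGTG in 2 (7.69%, against 7.26%), GATGGCG in 2 (7.69%, against 4.20%), CCGGAAG in 2 (7.69%, against 10.3%) and TGACGTC in 0 (against 3.45%). The 100 bases around the start, 50 before and 50 after, follow for 4 members that rose by 2-fold or more with AT7519 in Scr (SNHG17, SNHG1, GAS5 and SNHG5), for SNHG19 and SNHG8, among the highest per kilobase, and for SNHG12, which was called in 1 arm only. Capitals mark the run from the C nearest the start that meets this rule, even where the pyrimidines begin earlier. SNHG1 and GAS5 have none by this rule in the window. The rule was applied to 1 annotated start per gene, so a run at another start would be missed.
SNHG17 (chr20:38435279-38435378, minus strand): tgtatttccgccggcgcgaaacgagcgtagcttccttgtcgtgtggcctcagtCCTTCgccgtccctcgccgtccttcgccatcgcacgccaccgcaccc
SNHG1 (chr11:62855836-62855935, minus strand): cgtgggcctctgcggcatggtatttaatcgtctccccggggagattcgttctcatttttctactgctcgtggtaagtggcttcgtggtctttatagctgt
GAS5 (chr1:173868996-173869095, minus strand): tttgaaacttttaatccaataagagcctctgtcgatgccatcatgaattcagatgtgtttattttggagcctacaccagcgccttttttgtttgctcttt
SNHG5 (chr6:85678684-85678783, minus strand): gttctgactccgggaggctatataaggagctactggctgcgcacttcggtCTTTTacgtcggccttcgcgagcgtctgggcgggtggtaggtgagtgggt
SNHG19 (chr16:2155309-2155408, minus strand): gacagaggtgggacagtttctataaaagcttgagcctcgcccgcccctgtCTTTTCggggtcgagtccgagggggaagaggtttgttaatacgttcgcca
SNHG8 (chr4:118278712-118278811, plus strand): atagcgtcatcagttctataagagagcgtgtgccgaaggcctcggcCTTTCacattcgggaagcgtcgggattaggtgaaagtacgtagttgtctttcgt
SNHG12 (chr1:28581824-28581923, minus strand): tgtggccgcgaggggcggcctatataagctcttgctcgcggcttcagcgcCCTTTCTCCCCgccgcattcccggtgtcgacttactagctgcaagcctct
The first marked C is the annotated start itself in SNHG5, SNHG19 and SNHG12. In SNHG12 and SNHG8 another c stands directly before it. Of the 16 members with a run, 12 rose with AT7519 in Scr, 0 fell and 4 passed in neither direction (median log2 fold change 0.53). Of the 10 members whose window lacks one, 4 rose, 2 fell and 4 passed in neither direction (median -0.12). Of all genes 21.8% rose and 24.6% fell, and those with and without a run were not counted apart. The 2 sets also differ in level. SNHG22, SNHG27 and SNHG28, which averaged under 1 CPM and did not pass, lack a run, and SNHG26 is the only member that low with one. These are counts beside each other, with no test of their difference, and a match of letters does not show a site in use.

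AT7519 raised most of the host genes in each arm. In Scr 19 of the 30 rose, 3 fell and 8 did not pass (edgeR quasi-likelihood test, Benjamini-Hochberg adjusted p under 0.05 over all genes tested), where 46.5% of all genes were called, 21.8% as higher and 24.6% as lower. The median log2 fold change of the members was 0.52 and that of all genes -0.05. In siOGT1 17 rose and 5 fell (41.5% of all genes called, 19.4% higher and 22.0% lower), in siOGT2 18 rose and 4 fell (45.0%, 22.2% higher and 22.8% lower), and in OSMI2 17 rose and 4 fell (47.2%, 23.6% in each direction). The members' medians there were 0.44, 0.53 and 0.56, against -0.05, -0.03 and 0.02 for all genes. The 4 arms share no library, and 17 members rose and 3 fell in all 4 of them, where 15.0% of all genes rose and 15.3% fell in all 4. Another 4 passed in some arms, 6 in none, and 0 were called in opposite directions. These values are shares of a library, so a transcript that gained and one that lost less than the rest cannot be told apart. Scaled by library size alone, which moved the median of all genes by -0.25, -0.22, -0.26 and -0.25 in Scr, siOGT1, siOGT2 and OSMI2, the calls were 15 higher and 5 lower, 15 and 6, 14 and 6, and 17 and 7. With upper-quartile scaling, which moved it by 0.15, 0.13, 0.11 and 0.17, 19 were higher and 2 lower in Scr, 18 and 2 in siOGT1, and 18 and 3 in each of the other arms. The median of the members lay 0.57, 0.49, 0.56 and 0.54 above that of all genes with TMM, and 0.57, 0.49, 0.55 and 0.54 above it with library size alone. A change of scaling shifts all genes of a comparison by nearly the same amount. This difference could therefore hardly change, and its stability is no test of the scaling.

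**Figure D1:**
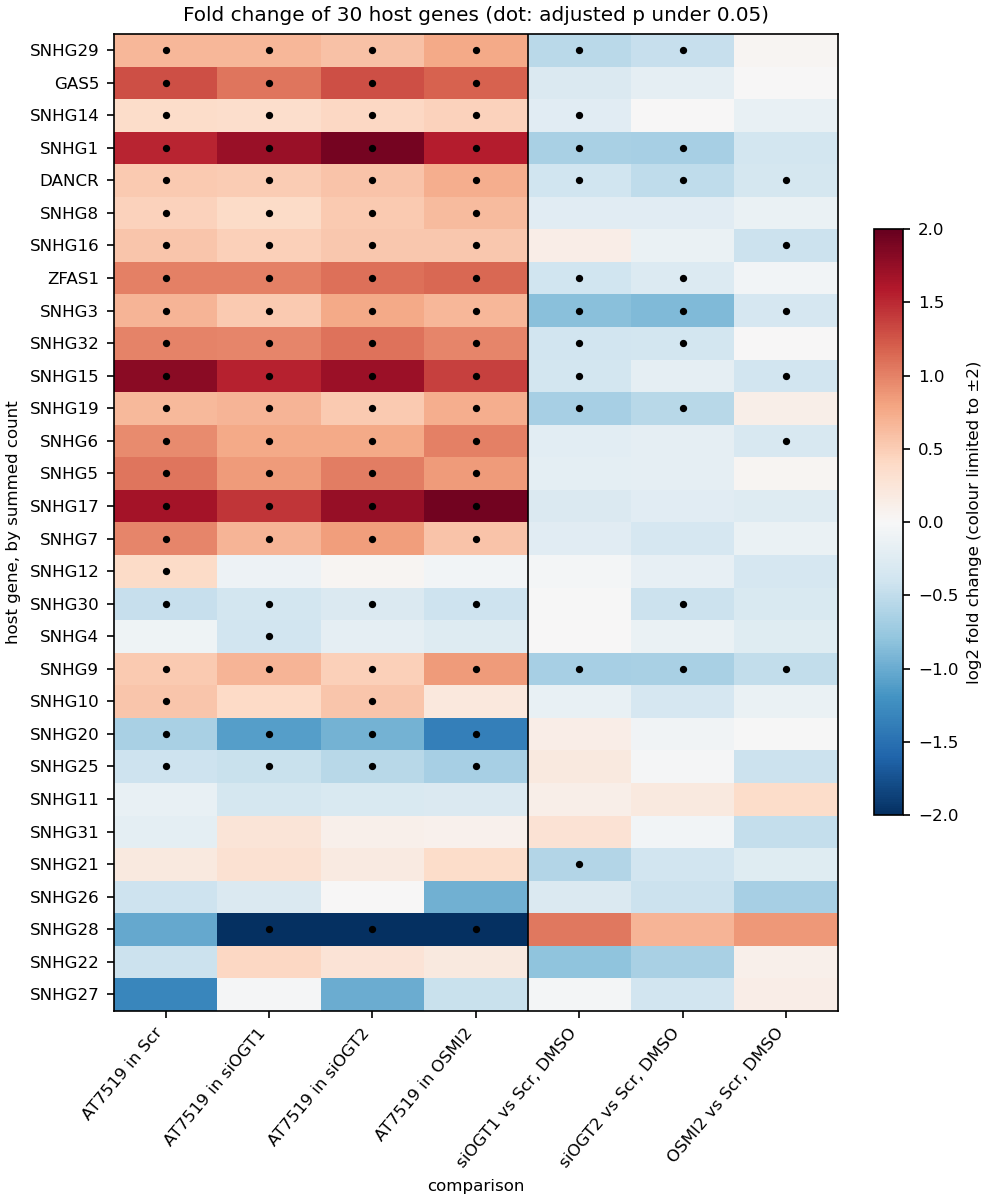
The map plots the log2 fold change of the 30 host genes (rows, ordered by summed count) in 7 comparisons (columns), AT7519 against DMSO in each arm and each arm against Scr under DMSO, with a dot where the adjusted p is under 0.05. The 4 AT7519 columns are red for most of the well-expressed genes and blue for SNHG30, SNHG20 and SNHG25, while the dotted cells of the 3 DMSO columns, 11, 9 and 6, are all blue.

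SNHG15, host of the H/ACA snoRNA SNORA9, had the smallest adjusted p of the members in Scr, siOGT1 and siOGT2. Under DMSO it stood at 53.8 and 53.4 CPM for Scr, 43.4 and 39.7 for siOGT1, 48.5 and 46.4 for siOGT2, and 39.8 and 42.8 for OSMI2 (replicate 1, then replicate 2). With AT7519 the 4 arms in the same order gave 176 and 199.9, 112 and 129, 142 and 168, and 114 and 98.5 CPM. Every AT7519 library lay above every DMSO library, and those of OSMI2 and siOGT1 were the lowest of the AT7519 libraries. The log2 fold changes were 1.81 ± 0.10, 1.54 ± 0.10, 1.71 ± 0.10 and 1.36 ± 0.10 (± SE), with adjusted p of 9.4e-11, 8.4e-10, 2.7e-10 and 2.1e-09, which is 3.504-fold in Scr and 2.57-fold in OSMI2. SNHG17, host of the SNORA71 family, rose by a similar amount, with log2 fold changes of 1.66 ± 0.19, 1.43 ± 0.19, 1.74 ± 0.19 and 1.92 ± 0.19. Its replicates were further apart, 49.1 and 73.6 CPM in Scr with AT7519, over 19.3 and 19.4 with DMSO.

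SNHG1 and GAS5 each carry a series of box C/D snoRNAs in successive introns. SNHG1 stood at 143 and 144 CPM for Scr, 97.5 and 84.6 for siOGT1, 95 and 86.9 for siOGT2, and 111 and 112 for OSMI2 under DMSO. With AT7519 it was at 369 and 454, 266 and 334, 306 and 383, and 345 and 315 CPM in the same arms. The DMSO and AT7519 libraries did not overlap, and the log2 fold changes were 1.52 ± 0.12, 1.72 ± 0.12, 1.92 ± 0.12 and 1.56 ± 0.12, with adjusted p from 1.3e-08 to 1.6e-09. GAS5, a transcript that accumulates when growth is arrested, stood at 298 and 269 CPM for Scr, 249 and 214 for siOGT1, 256 and 246 for siOGT2, and 285 and 283 for OSMI2 under DMSO. Its AT7519 libraries held 617 and 764, 463 and 515, 578 and 647, and 653 and 632 CPM. All 8 lay above all 8 DMSO libraries, with those of siOGT1 lowest. The fold changes of GAS5 were 1.28 ± 0.10, 1.08 ± 0.10, 1.29 ± 0.10 and 1.18 ± 0.10 (log2), and the adjusted p ran from 3.8e-09 to 5.5e-08.

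ZFAS1, host of the SNORD12 family, had the smallest adjusted p among members in the OSMI2 arm (3.8e-10). Its DMSO libraries held 99.5 and 104 CPM for Scr, 77 and 76.6 for siOGT1, 86.8 and 81.1 for siOGT2, and 94.7 and 102 for OSMI2. With AT7519 they held 196 and 213, 155 and 155, 186 and 175, and 213 and 223 CPM in the same order. The level with AT7519 was about 2.01-fold to 2.21-fold that with DMSO in each arm, with log2 fold changes of 1.01 ± 0.08, 1.01 ± 0.08, 1.11 ± 0.08 and 1.15 ± 0.08. Several other box C/D hosts rose as well. In Scr, siOGT1, siOGT2 and OSMI2 the log2 fold changes were 1.07, 0.85, 1.03 and 0.86 for SNHG5, 0.98, 0.97, 1.08 and 0.98 for SNHG32, 0.95, 0.76, 0.76 and 1.003 for SNHG6, 0.67, 0.66, 0.58 and 0.75 for SNHG29 and 0.65, 0.68, 0.53 and 0.73 for SNHG19. In siOGT2 SNHG19 did not pass without AT7519 replicate 1 (log2 fold change 0.26, adjusted p 0.18) or DMSO replicate 2 (0.48, adjusted p 0.083). Of the 11 members in which GENCODE v29 places box C/D but no H/ACA snoRNA or scaRNA, 9 rose in each of the 4 arms with TMM scaling (median 0.67 over the 11 in Scr). SNHG30, host of SNORD7, fell in each arm, and SNHG26, host of SNORD93, passed in none. Of 12 members with an H/ACA snoRNA 8 rose and 1 fell in Scr (median 0.49), and of 4 with a scaRNA 1 rose and 1 fell. With library-size scaling SNHG14 lost its call in Scr, siOGT1 and siOGT2, and SNHG19 in siOGT2.

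**Figure D2:**
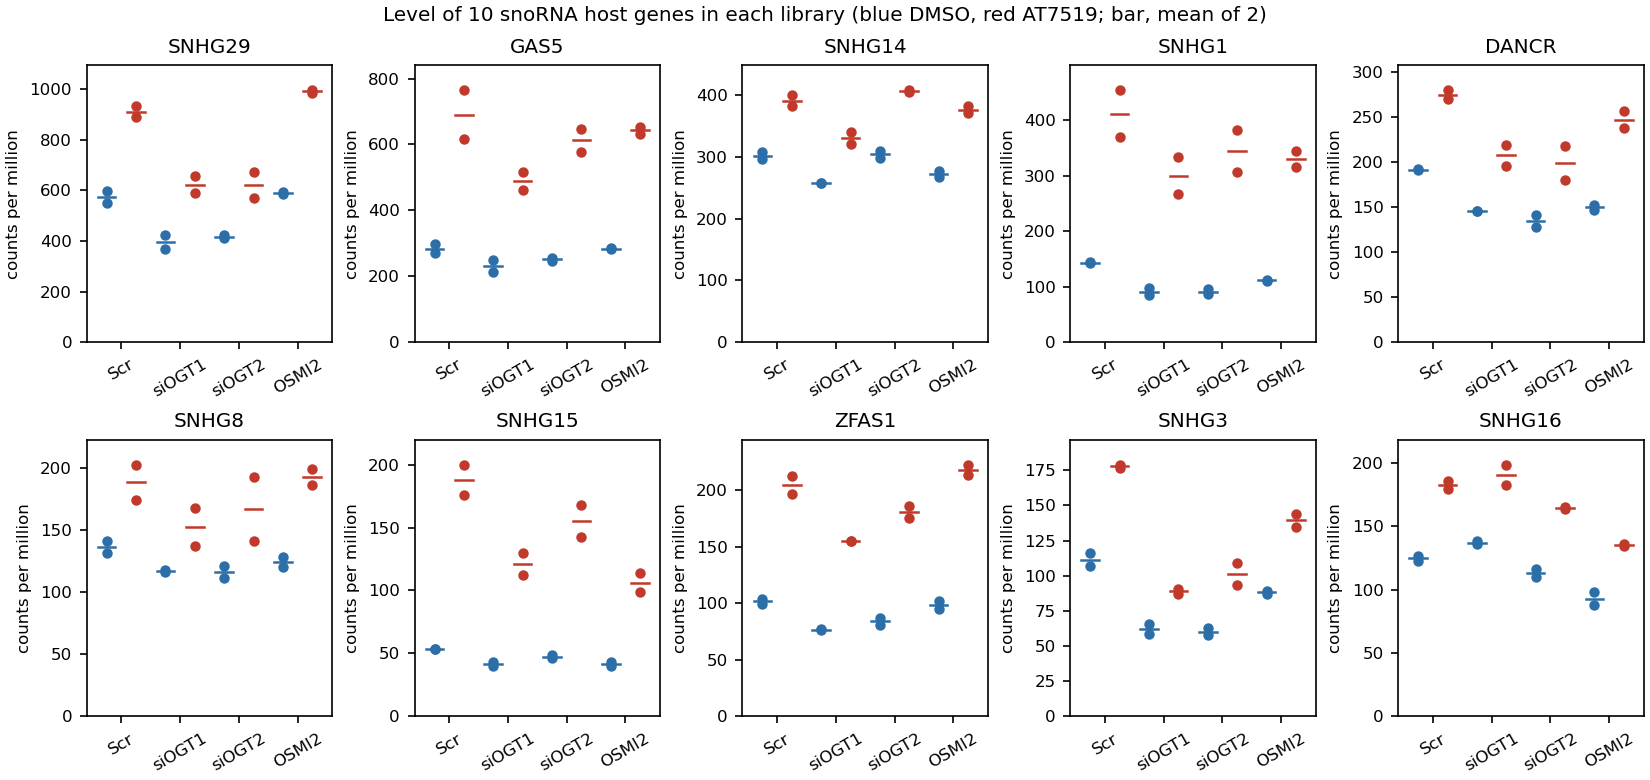
The panels plot CPM in each library for 10 host genes, DMSO in blue and AT7519 in red for the 4 arms, with a bar at the mean of 2 libraries. GAS5, SNHG1, SNHG15 and ZFAS1 show no overlap between blue and red points in any arm, and SNHG3 is lower in both siRNA arms than in Scr with either agent.

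Some of the abundant members rose less than GAS5 and SNHG1. SNHG29, host of the SNORD49 and SNORD65 snoRNAs, held 598 and 552 CPM for Scr, 422 and 367 for siOGT1, 422 and 410.2 for siOGT2, and 593 and 585 for OSMI2 with DMSO. With AT7519 it held 934 and 891, 656 and 589, 675 and 570.5, and 988 and 996 CPM. Both agents show the same order of arms, with Scr and OSMI2 high and both siRNA arms low. SNHG14, the long transcript of the imprinted Prader-Willi region that carries the SNORD116 and SNORD115 arrays, held 296 and 307 CPM for Scr, 258 and 257 for siOGT1, 298 and 309.7 for siOGT2, and 277 and 267 for OSMI2 with DMSO. Its AT7519 libraries held 382 and 399.6, 320.1 and 339.5, 405 and 407, and 381 and 370.2 CPM. The 2 agents do not overlap within any arm, and the log2 fold changes were 0.37 ± 0.07, 0.36 ± 0.07, 0.42 ± 0.07 and 0.47 ± 0.07.

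DANCR, host of SNORA26, held 192 and 191 CPM for Scr, 146 and 146 for siOGT1, 141 and 127 for siOGT2, and 147 and 153 for OSMI2 with DMSO. With AT7519 it held 270.1 and 279, 219 and 196, 217 and 180.3, and 237 and 257 CPM. Libraries of the 2 agents do not overlap within an arm, and the rise was 0.52 ± 0.09 (log2) in Scr and 0.72 ± 0.09 in OSMI2. SNHG8, host of SNORA24, held 131 and 141 CPM for Scr, 116 and 117 for siOGT1, 111 and 121 for siOGT2, and 119.8 and 128 for OSMI2 with DMSO. Its AT7519 libraries held 202 and 174, 168 and 137, 193 and 141, and 199 and 186 CPM. Replicate 1 was the higher in all 4 AT7519 pairs, and the log2 fold changes of 0.47 ± 0.12, 0.38 ± 0.12, 0.53 ± 0.12 and 0.63 ± 0.12 passed in each arm. With library-size scaling SNHG8 did not pass in Scr or siOGT1. In siOGT1 the call also ended without either DMSO replicate (0.37 and 0.38, adjusted p 0.079 and 0.069) or AT7519 replicate 1 (0.23, adjusted p 0.20), and in siOGT2 without AT7519 replicate 1 (0.29, adjusted p 0.054).

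SNHG16, host of the SNORD1 snoRNAs, held 123 and 127 CPM for Scr, 138 and 136 for siOGT1, 117 and 109.9 for siOGT2, and 98 and 87.6 for OSMI2 with DMSO. With AT7519 it held 179 and 186, 198 and 182, 163 and 165, and 136 and 135 CPM. AT7519 raised it in each arm, by 0.55, 0.47, 0.54 and 0.54 on the log2 scale in the usual order of arms, and the OSMI2 libraries were the lowest with either agent. SNHG3, host of the SNORA73 pair and thus of an RNA needed for early cleavage of the ribosomal precursor, held 116 and 107 CPM for Scr, 65.5 and 58.7 for siOGT1, 62.6 and 58 for siOGT2, and 87.4 and 89 for OSMI2 with DMSO. Its AT7519 libraries held 179 and 177, 90.8 and 87.1, 109 and 93.7, and 144 and 135 CPM. The rise was 0.67 ± 0.09 in Scr and 0.52 ± 0.09 in siOGT1, and in siOGT1 the level with AT7519 stayed below that of the Scr libraries with DMSO.

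A few members fell. SNHG20, which hosts a scaRNA, went from 11.5 and 10.8 CPM to 7.27 and 6.93 in Scr and from 11.8 and 10.4 to 4.81 and 3.71 in OSMI2, with log2 fold changes of -0.65 ± 0.14, -1.10 ± 0.14, -0.94 ± 0.14 and -1.37 ± 0.15. SNHG30 fell in each arm (-0.46, -0.37, -0.28 and -0.41). SNHG30 lost its call with upper-quartile scaling in siOGT1, siOGT2 and OSMI2. It also lost it in siOGT1 without DMSO replicate 1 (-0.35, adjusted p 0.068) or AT7519 replicate 2 (-0.29, adjusted p 0.12), and in OSMI2 without DMSO replicate 1 (-0.33, adjusted p 0.066). In siOGT2 it did not pass with RLE scaling, without the filter on low counts, with only the compared groups in the fit or with DESeq2 (adjusted p 0.067 to 0.073), nor without AT7519 replicate 2 (-0.20, adjusted p 0.27) or any one DMSO library but OSMI2 replicate 2 (-0.24 to -0.32, adjusted p 0.051 to 0.19). SNHG25 also fell in each arm (-0.42, -0.44, -0.55 and -0.66), but in Scr it did not pass with RLE scaling (adjusted p 0.0502) or upper-quartile scaling (0.14), or without DMSO replicate 2 (log2 fold change -0.32, adjusted p 0.20) or AT7519 replicate 2 (-0.24, adjusted p 0.33). In siOGT1 SNHG25 did not pass with upper-quartile scaling (adjusted p 0.098) or without DMSO replicate 1, DMSO replicate 2 or AT7519 replicate 2 (adjusted p 0.066, 0.11 and 0.20), and in siOGT2 without DMSO replicate 2 (adjusted p 0.070). SNHG4 passed as lower in siOGT1 (-0.39 ± 0.11, adjusted p 0.0080) and gave -0.26 ± 0.11 in OSMI2 (adjusted p 0.068, and under 0.05 with several alternatives). In siOGT1 it did not pass with upper-quartile scaling (adjusted p 0.072) or without DMSO replicate 1 (-0.26, adjusted p 0.16) or AT7519 replicate 1 (-0.31, adjusted p 0.082). SNHG28 fell in siOGT1, siOGT2 and OSMI2 (-2.29, -2.31 and -2.42) on 2 to 9 reads per AT7519 library, and it did not pass without AT7519 replicate 1 of the same arm (-1.95, -1.72 and -2.24, adjusted p 0.052, 0.096 and 0.063) or, in the siRNA arms, without DMSO replicate 1 (-1.93 and -2.13, adjusted p 0.076 and 0.051). Some rises in Scr rested on single libraries. SNHG12 (0.38 ± 0.14, adjusted p 0.032) did not pass without DMSO replicate 2 (0.24, adjusted p 0.30) or either AT7519 replicate (0.39 and 0.40, adjusted p 0.069 and 0.066). SNHG10 (0.55 ± 0.16) did not pass without DMSO replicate 2 (0.40, adjusted p 0.13) or AT7519 replicate 1 (0.46, adjusted p 0.066). Its rise in siOGT2 (0.55 ± 0.17) did not pass without the same replicates of that arm (0.40 and 0.45, adjusted p 0.14 and 0.079).

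The response to AT7519 was compared between arms with an interaction term. None of the 30 members passed in siOGT1, siOGT2 or OSMI2 against Scr with edgeR, where 0.0504%, 0% and 0.747% of all genes were called. At an unadjusted p under 0.05 the counts were 2, 1 and 5, and DESeq2 called 0, 0 and 1. The member with the smallest adjusted p was SNHG20 in OSMI2, whose fall was larger there than in Scr by a log2 difference of -0.72 ± 0.20 (adjusted p 0.13, and 0.015 with DESeq2). SNHG15 rose less in OSMI2 than in Scr by -0.45 ± 0.14 (adjusted p 0.21). GAS5 differed by -0.21 ± 0.14, 0.00 ± 0.14 and -0.11 ± 0.14 in siOGT1, siOGT2 and OSMI2, and ZFAS1 by 0.00, 0.10 and 0.14, each ± 0.11. Without OSMI2 AT7519 replicate 1, 3 members passed in OSMI2, SNHG20 (-0.998, adjusted p 0.020), SNHG7 (-0.66, adjusted p 0.037) and SNHG15 (-0.63, adjusted p 0.049).

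Under DMSO every member called in siOGT1, siOGT2 or OSMI2 was lower than in Scr. With siOGT1 0 members rose and 11 fell, where 10.4% of all genes were called, 4.89% as higher and 5.51% as lower. With siOGT2 0 rose and 9 fell (4.30% called, 1.92% higher and 2.38% lower), and with OSMI2 0 rose and 6 fell (2.98% called, 0.491% higher and 2.49% lower). The members' median log2 fold changes were -0.23, -0.25 and -0.19, against -0.01, -0.02 and -0.01 for all genes. The 3 comparisons use the same 2 Scr libraries. The siOGT1 count was 6 without Scr DMSO replicate 1 or siOGT1 DMSO replicate 2, and SNHG29, SNHG1, ZFAS1, SNHG3, SNHG32 and SNHG9 were called with siOGT1 under every alternative run. The siOGT2 count was 5 without either Scr DMSO replicate and 1, SNHG3, without siOGT2 DMSO replicate 2. The OSMI2 count was 0 without Scr DMSO replicate 2 or OSMI2 DMSO replicate 2, 1 without replicate 1 of either, and 2 or 3 without any one AT7519 library of Scr, siOGT1 or OSMI2. It was 2 with upper-quartile scaling, 1 with library size alone and 11 with a replicate block within agent.

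SNHG3 fell furthest with both siRNAs. Its DMSO libraries, given earlier, lay at 58 to 65.5 CPM in the siRNA arms, below both Scr libraries at 107 and 116, with those of OSMI2 in between. The log2 fold changes were -0.84 ± 0.09 with siOGT1 (adjusted p 4.5e-06), -0.89 ± 0.09 with siOGT2 (adjusted p 8.6e-06) and -0.34 ± 0.09 with OSMI2 (adjusted p 0.036), and for both siRNAs the call held under every alternative run. SNHG9, an H/ACA host that starts beside RPS2, gave -0.67 ± 0.11, -0.64 ± 0.11 and -0.48 ± 0.11, and DANCR gave -0.39 ± 0.09, -0.51 ± 0.09 and -0.35 ± 0.09. With OSMI2 the call of SNHG9 ended under 5 settings and that of DANCR under 8. With siOGT2 each ended under 1 setting, and with siOGT1 that of DANCR under 2. SNHG1 fell with siOGT1 (-0.65 ± 0.12) and siOGT2 (-0.66 ± 0.12) and did not pass with OSMI2 (-0.36 ± 0.12, adjusted p 0.12). SNHG15 fell with siOGT1 and OSMI2 (-0.37 ± 0.10 and -0.38 ± 0.10), and SNHG14 with siOGT1 (-0.23 ± 0.07). With siOGT1 the call of SNHG15 ended with library-size scaling and without either Scr DMSO replicate or siOGT1 DMSO replicate 2 (adjusted p 0.090 to 0.24). That of SNHG14 ended under 9 settings, among them the removal of any one DMSO library of Scr, siOGT1 or siOGT2 (adjusted p 0.0502 to 0.23). With OSMI2 the call of SNHG15 ended under 16 settings (adjusted p 0.054 to 0.31) and that of SNHG3 under 12.

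The siRNAs and the inhibitor were set against each other directly, in a comparison added after the values were seen. Between OSMI2 and the mean of both OGT siRNAs under DMSO, 5 members were higher in OSMI2 and 3 lower, where 16.6% of all genes were called, 6.90% as higher and 9.70% as lower. The higher ones were SNHG29 (0.54 ± 0.07), ZFAS1 (0.29 ± 0.06), SNHG3 (0.53 ± 0.07), SNHG32 (0.38 ± 0.06) and SNHG19 (0.73 ± 0.13), as log2 differences. SNHG19 stood at 54.7 and 50.3 CPM for Scr and 54.6 and 59.9 for OSMI2, over 35.7 and 30.4 with siOGT1 and 37 and 34.4 with siOGT2, so that its OSMI2 libraries overlapped those of Scr and not those of the siRNAs. SNHG16 (-0.42 ± 0.07), SNHG25 (-0.52 ± 0.13) and SNHG31 (-0.58 ± 0.15) were lower in OSMI2, and SNHG16 had the smallest adjusted p of the members in OSMI2 against Scr (-0.43 ± 0.08, adjusted p 0.0046). The count of 8 was 5 without OSMI2 DMSO replicate 2.

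With AT7519 present in both groups, also compared after the values were seen, siOGT1 gave 1 member higher and 15 lower than Scr (19.2% of all genes called, 9.97% higher and 9.19% lower), siOGT2 0 and 9 (8.16%, 4.68% higher and 3.48% lower) and OSMI2 0 and 9 (14.2%, 5.18% higher and 9.01% lower). SNHG3 was again lower, by -1.001 ± 0.09, -0.81 ± 0.09 and -0.35 ± 0.09 on the log2 scale. SNHG15 gave -0.63 ± 0.10, -0.28 ± 0.10 (adjusted p 0.093) and -0.82 ± 0.10. SNHG7, host of H/ACA snoRNAs, gave -0.53 ± 0.11, -0.49 ± 0.11 and -0.53 ± 0.11, and SNHG12 -0.52 ± 0.14, -0.49 ± 0.14 and -0.76 ± 0.14. With siOGT2 the call of SNHG12 ended when only the compared groups were fitted or any one of their 4 libraries was left out (adjusted p 0.056 to 0.15), and that of SNHG7 with the compared groups only or without siOGT2 AT7519 replicate 1 or Scr AT7519 replicate 2 (adjusted p 0.061 to 0.079). With siOGT1 SNHG12 did not pass without siOGT1 AT7519 replicate 2 (adjusted p 0.055), and with OSMI2 SNHG3 did not pass without OSMI2 AT7519 replicate 2 (adjusted p 0.066). SNHG31 was the 1 member higher with siOGT1 (0.73 ± 0.17). GAS5 passed with siOGT1 (-0.50 ± 0.10) and not with siOGT2 or OSMI2 (-0.17 ± 0.10 and -0.10 ± 0.10).

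Some host genes start near another gene on the other strand. Within 1000 bases of the start of 9 members a tested gene begins on the other strand, and the pairs did not move as one with AT7519. For GAS5, ZFAS1 and SNHG28 the partner begins downstream of the member's start, so these pairs overlap. ZFAS1 and ZNFX1 also share exon bases, 11.1% of the ZFAS1 exons. ZBTB37, a zinc finger gene beside GAS5, fell from a mean of 72.7 CPM to 21 in Scr (-1.79 ± 0.13, adjusted p 1.2e-09) and by 1.22, 1.34 and 1.39 on the log2 scale in the other arms, where GAS5 rose. ZNFX1, beside ZFAS1, fell by 0.59, 0.90, 0.90 and 0.96, where ZFAS1 rose. SLC3A2, an amino acid transporter subunit beside SNHG1, had log2 fold changes of 0.03 ± 0.11 in Scr, -0.25 ± 0.12 for siOGT2 and -0.04 ± 0.11 for OSMI2, none past the threshold, and fell by 0.41 in siOGT1. BARD1, beside SNHG31, fell by 0.99, 1.11, 0.88 and 1.13, where SNHG31 gave -0.20, 0.25, 0.11 and 0.08 and passed in no arm. RPS2, beside SNHG9, rose by 0.84, 0.68, 0.73 and 0.84, and TRAF7, beside SNHG19, by 0.53, 0.47, 0.40 and 0.50, in the direction of their neighbours. ACAA2, beside SNHG22, rose in each arm by 0.34 to 0.68, where SNHG22, at 5 to 26 reads per library, did not pass. The partners of SNHG16 and SNHG28 are antisense transcripts with group means of at most 0.578 CPM.

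**Figure D3:**
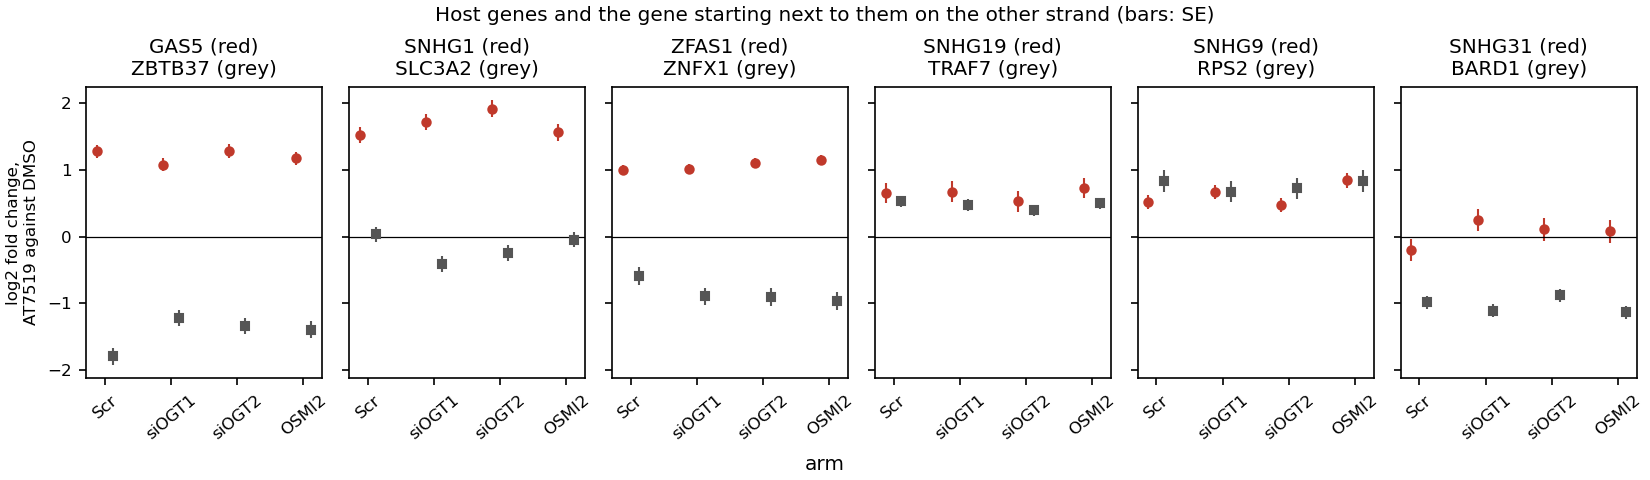
The panels plot the log2 fold change of AT7519 against DMSO in the 4 arms for 6 host genes (red circles) and the gene that starts next to each on the other strand (grey squares), with bars of 1 SE. GAS5 and ZFAS1 lie above 0 where ZBTB37 and ZNFX1 lie below it, while SNHG19 and SNHG9 lie near their partners.

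The libraries were made with a strand-specific kit per the labels, but whether the counting used strand is not stated. In GENCODE v29, 16 of the 30 members share exon bases with another tested gene, 14 of them with a gene on the other strand, and for 9 the sharing reaches 10% of the exons. The largest shares on the other strand are those of SNHG28 with SLAMF8 (37.6%), SNHG21 with FSD2 (34.1%), SNHG6 with MCMDC2 (29.3%), SNHG7 with DIPK1B (25.2%) and SNHG10 with GLRX5 (20.1%). In Scr the log2 fold changes of these neighbours with AT7519 were -7.41, -2.72, -0.16, 0.68 and 0.54, and their part in the members' values was not tested. SLAMF8 and FSD2 averaged only 0.191 and 0.0837 CPM. The largest share on either strand is that of SNHG21 with a same-strand non-coding transcript (72.9%), whose log2 fold change was 2.13. In 10 members the merged exons form fewer blocks than a single transcript has exons, because other annotated transcripts retain introns. SNHG1 has 11 exons in a transcript but 3 blocks covering 95.6% of its span, and GAS5 has 13 and 5, covering 72.9%. SNHG15 (92.6%) and SNHG12 (92.8%) are alike, so for these genes most intron bases lie in annotated exons, and spliced and unspliced RNA cannot be told apart in gene counts. SNHG29 (9.43% of its span in exons), ZFAS1 (12.8%) and SNHG5 (15.8%) have a far smaller share of their span in exons. SNHG5 still has 9 exons in a transcript but 4 blocks. The annotated snoRNAs of SNHG5 and SNHG29 lie inside merged exons too.

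Hosted small RNAs with an entry in the count table were counted as genes of their own. GENCODE v29 places 142 of them within 28 of the members, 84 in SNHG14, and none within GAS5. Outside SNHG14, 21 small RNAs lie outside the host's merged exons, of which 19 had an entry in the count table and 16 were tested. Of the 37 that lie inside, 6 had an entry and 1 was tested, so most had no entry under their GENCODE v29 identifier. Whether they were counted under another identifier was not tested. Of the 17 tested, 10 rose and 0 fell with AT7519 in Scr (median log2 fold change 1.497), 10 rose in siOGT1, 12 in siOGT2 and 11 in OSMI2, where 1 fell. Of all genes 21.8%, 19.4%, 22.2% and 23.6% rose in these arms, and 24.6%, 22.0%, 22.8% and 23.6% fell. SNORA71B, in SNHG17, went from a mean of 0.926 CPM to 9.30 in Scr, a log2 fold change of 3.35 ± 0.34 beside 1.66 for its host. SNORD12B, in ZFAS1, gave 2.66 ± 0.35 beside 1.01, and SNORD1B, in SNHG16, 2.88 ± 0.47 beside 0.55. SNORA74A, in SNHG4, gave 2.42 ± 0.48 (0.167 to 0.957 CPM), where SNHG4 itself gave -0.08 ± 0.11. Some small RNAs lay below their host in Scr. SNORD60 gave -0.10 beside 0.65 for SNHG19, and SNORA26 gave 0.37 beside 0.52 for DANCR. SNORA71A and SNORA71D gave 1.50 and 0.84 beside 1.66 for SNHG17. The other tested ones outside SNHG14 lay above their hosts. Of 21 tested snoRNAs in SNHG14, 4 rose and 0 fell in Scr (median 0.63). The filter on low counts can be passed through the AT7519 libraries alone, which favours counts of rises among rare small RNAs. With DMSO in Scr SNORD116-30 held 0.0544 CPM and SNORD12C 0.0771, against 0.282 and 0.379 with AT7519. Under DMSO 0 of the tested small RNAs passed with siOGT1 or siOGT2, where 10.4% and 4.30% of all genes were called. With OSMI2, where 2.98% of all genes were called, SNORA73B, in SNHG3, fell by 1.097 on the log2 scale. The libraries were not made for small RNAs as far as the labels say, so reads at these genes can come from the mature RNA or from the host's unspliced intron, and which was not tested.

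**Figure D4:**
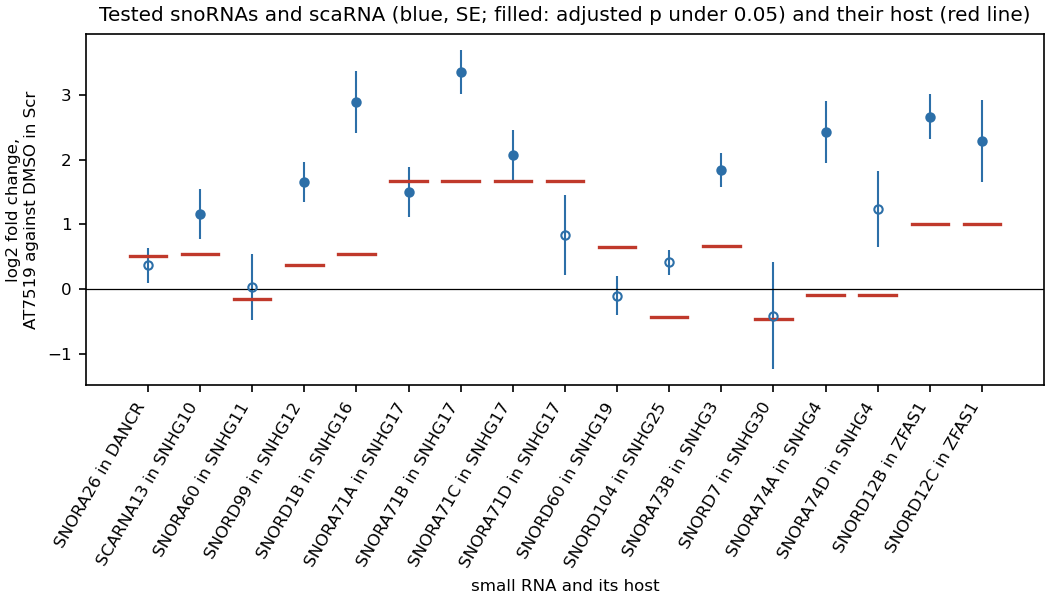
The plot gives the log2 fold change of AT7519 against DMSO in Scr for 17 tested small RNAs outside SNHG14 (blue, with bars of 1 SE, filled where the adjusted p is under 0.05) and for the host of each (red line). Most filled points lie above the line of their host, among them SNORA71B at 3.35 over 1.66 for SNHG17 and SNORA74A at 2.42 over -0.08 for SNHG4. At such low counts mainly large rises pass, so filled points favour values above the host. SNORA26, SNORA71A, SNORA71D and SNORD60 lie below the line of their host, and the other small RNAs plotted lie above it.

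Other genes of the same pathway were read from the same fit in Scr, where 21.8% of all genes rose and 24.6% fell with AT7519. The ribosomal protein genes that host snoRNAs all rose, 18 of 18 with a median log2 fold change of 0.77, among them RPL27A (0.76 ± 0.07) and RPS3 (0.78 ± 0.07). Of 24 other protein-coding hosts 18 rose and 1 fell (median 0.49). Those with the smallest adjusted p were the translation factor EIF4A2 (1.23 ± 0.07), TAF1D (1.39 ± 0.09), a subunit of the RNA polymerase I selectivity factor, and RACK1 (0.74 ± 0.07), a protein of the small ribosomal subunit. Of 8 core proteins of snoRNPs 7 rose and 0 fell (median 0.53), with SNU13 at 0.69 ± 0.08, the methyltransferase FBL at 0.58 ± 0.07 and NOP10 at 0.57 ± 0.08. NOP56 and DKC1 stand both among these and among the other protein-coding hosts. Of 12 assembly factors 6 rose and 2 fell (median 0.17), with the box C/D assembly factor ZNHIT6 at -1.42 ± 0.11, RUVBL2 at 0.53 ± 0.08 and PIH1D1 at 0.57 ± 0.10. Of 16 factors of nonsense-mediated decay 3 rose and 8 fell (median -0.25), with UPF3B at -1.43 ± 0.11, UPF2 at -0.97 ± 0.09 and SMG9 at -1.50 ± 0.15. Of 15 other long non-coding RNAs tested 3 rose and 3 fell (median -0.09), near the shares of all genes. Among them OIP5-AS1 gave -0.68 ± 0.10, PVT1 0.78 ± 0.13 and PCA3, a prostate transcript, 2.46 ± 0.45. Of the snoRNP core under DMSO with OSMI2, 0 rose and 6 fell of 8 (median -0.36), where 0.491% of all genes rose and 2.49% fell. The alternative runs covered the members and not these lists, so how far these calls hold was not tested. With siOGT2 0 rose and 1 fell (median -0.18), and with siOGT1 0 were called in either direction (median -0.06), where 4.30% and 10.4% of all genes were called.

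**Figure D5:**
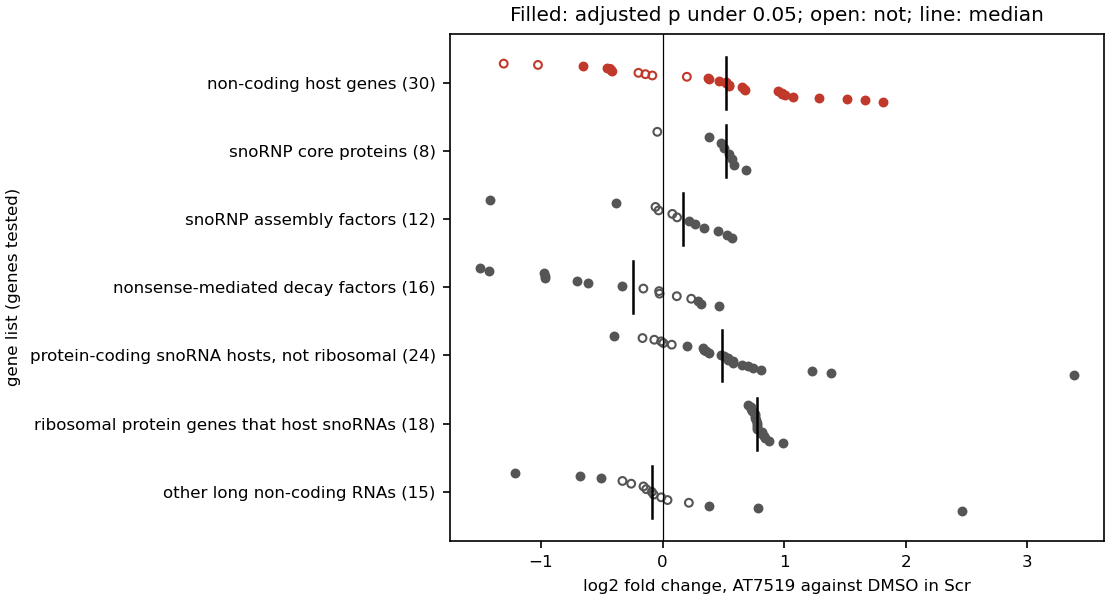
Each point is a gene, placed by its log2 fold change with AT7519 against DMSO in Scr, for the 30 host genes (red) and 6 other lists (grey), filled where the adjusted p is under 0.05, with a line at the median of each list. The 18 ribosomal protein hosts lie together around 0.77, while the host genes spread from -1.31 to 1.81.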

How the data were processed

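The labels name total RNA and a strand-specific TruSeq kit, and no selection of the RNA. Per the submitters' processing notes the tools were STAR, HTSeq and DESeq2 and the builds hg19 and GRCh37. The authors deposited raw read counts per gene, and a signal table that equals those counts divided by 1 size factor per library (largest relative deviation 5.5e-10). Only the counts entered the tests.

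Gene symbols came from a name table. Counts of 23830 genes that passed filterByExpr were fitted with edgeR 4.0.16 (R 4.3.3, limma 3.58.1) as 1 mean per group over all 16 libraries, with TMM scaling and a robust quasi-likelihood test. P-values were two-sided and adjusted by Benjamini-Hochberg over all genes tested. A member was called at an adjusted p under 0.05. SE is the log2 fold change divided by the square root of F. As alternatives the scaling was RLE, upper-quartile or library size alone, and others used no filter, the compared groups only, replicate blocks, DESeq2 1.42.0, a higher count minimum, and leaving out each library. The fit was tested on simulated data. Exon lengths, neighbours and small RNAs came from GENCODE v29 (GRCh38), matched by gene identifier, so no coordinates of it are given. Promoter windows are credited to RefSeq.

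The members and gene lists were chosen with earlier results of these data known. Every member may be named. Values of every library are given for the 6 members with the highest mean CPM and for the called member with the smallest adjusted p in each of 10 comparisons. Of other lists the 3 genes with the smallest adjusted p in Scr are named, except that results for a few genes are not reported here.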

Additional observations from a re-analysis of the deposited data

How the results depend on the processing

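No call of a member reversed under any alternative. The count of members called with AT7519 ran from 19 to 22 in Scr, 17 to 23 in siOGT1, 18 to 22 in siOGT2 and 21 to 22 in OSMI2 when 1 library was left out, and 17 of 22, 16 of 22, 14 of 22 and 19 of 21 calls held under every setting. Under DMSO it ran from 6 to 12 with siOGT1, 1 to 9 with siOGT2 and 0 to 6 with OSMI2, and 6 of 11, 1 of 9 and 0 of 6 held throughout. In the interactions it ran from 0 to 0, 0 to 0 and 0 to 3. With AT7519 in both groups it ran from 13 to 18, 6 to 9 and 6 to 11, and for OSMI2 against both siRNAs from 5 to 11. A group left with 1 library is assumed to vary like the others. OSMI2 against Scr under DMSO gave 2 with upper-quartile scaling and 1 with library size alone. Its interaction gave 1 without the filter and 1 with DESeq2. The siOGT2 comparison with AT7519 gave 3 when only its own groups were fitted. The causes were not tested. A minimum of 1000 reads leaves 26 members.

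Replicate numbers are shared by the groups, but nothing in the labels ties them to a batch. Deviations of same-numbered libraries correlated at 0.60 to 0.73 among siRNA arms with the same agent and at -0.13 to 0.04 between agents (10028 genes of mean log2 CPM 3 or more). With OSMI2 they did so at 0.05 to 0.18 and at -0.03 to 0.43, the highest being OSMI2 with DMSO against OSMI2 with AT7519. Over all tested genes the siRNA arms with the same agent gave 0.07 to 0.19. With the replicate block within agent OSMI2 against Scr under DMSO gave 11 members and its interaction 2. A single replicate block over all samples gave 12, 9 and 6 members for the 3 arms set against Scr. The crossed block, added after the data were seen, gave 12, 9 and 7.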
